A study of Mus musculus with 24 samples.

Results

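Pyruvate dehydrogenase kinases and phosphatases were followed in the livers of fasted mice that lack the small GTPase Rab30, the mitochondrial enzyme Cpt2, or both. The 6 genes were taken by symbol from the deposited table of 54532 genes, and all 6 were found: the kinases Pdk1, Pdk2, Pdk3 and Pdk4, and Pdp1 and Pdp2, which encode the catalytic subunits of the phosphatases. The mitochondrial pyruvate dehydrogenase complex turns pyruvate into acetyl-CoA. The kinases switch it off by phosphorylating its E1 subunit Pdha1, and the phosphatases take the phosphate away again. In the fasted liver the kinases are known for holding the complex off while fatty acids are burned, so that pyruvate is kept for glucose synthesis. Pdk4 is known as the member most induced by fasting, and as a target of Pparα, of FoxO factors and of the glucocorticoid receptor.

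RNA-seq of whole livers was made from male mice fasted for 24 h, of the strain C57/BL6J by the study's reporting summary, with 4 separate mice in each of 6 groups and 24 libraries in all. The labels gave no age, and the methods describe young adults. Rab30KO mice lacked Rab30 in the whole body, and Rab30 Ctrl mice were their wild-type littermates. Rab30L-/-, Cpt2L-/- and DKO mice lacked Rab30, Cpt2 or both in the liver through a Cre transgene under the albumin promoter. The paper describes this Cre as deleting in hepatocytes, and the other cells of the liver were not checked here. The ff;ff mice carried floxed alleles of both genes without a deletion and are labelled as littermates of DKO, not of Rab30L-/- or Cpt2L-/-. In comparisons of Rab30L-/- or Cpt2L-/- with ff;ff or DKO, and in the interaction built on all 4 groups, differences between mouse lines therefore cannot be told apart from genotype. All comparisons lie within the fasted state, and no fed liver was analysed here.

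Library totals ranged from 11801027 to 24497738 counts, and every pair of libraries of a group differed by more than counting noise. Values per library are given as CPM, counts scaled to the library's total after TMM correction, which compare 1 gene between libraries. The targeted genes did not follow all labels. In the libraries labelled Rab30L-/- the mean of Rab30 was 17.1 CPM ± 7.35 (SD, n = 4), below 36.5 ± 9.54 in those labelled ff;ff, but it was 161 ± 57.8 in DKO and 147 ± 29.97 in Cpt2L-/-. Neither Rab30L-/- against ff;ff nor Rab30KO (11.2 ± 5.04) against Rab30 Ctrl (14.1 ± 10.8) passed edgeR's test for Rab30 (adjusted p = 0.174 and 1.0), and both pairs overlapped. The mean of Cpt2 was 127 ± 30.2 CPM for Cpt2L-/- and 132 ± 5.14 for ff;ff, 105 ± 10.9 for DKO and 219 ± 40.3 for Rab30L-/-, and the last 2 did not overlap with ff;ff. The Rab30 allele lacks exon 4 alone, the deleted part of Cpt2 is not given in the sources used here, and counts over a whole gene do not check the loss of an exon, so each group name below means the libraries with that label, in every direction given. The summed CPM of 6 hepatocyte markers (Alb, Apoa1, Ttr, Tat, Cps1 and Serpina1a) lay between 44410 and 126700 in the 24 libraries, as the label liver asks.

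Per length, Pdk2 mRNA was the most abundant of the 6 in the 4 groups with intact Cpt2, and Pdk4 mRNA was the most abundant in Cpt2L-/- and DKO. Levels of different genes were compared only by the deposited FPKM, which divide counts by gene length. In ff;ff the mean FPKM was 42.3 ± 7.45 for Pdk2, 10.1 ± 1.07 for Pdp2, 8.86 ± 1.94 for Pdk1 and 7.77 ± 4.70 for Pdk4. Pdk3 (0.245 ± 0.138) and Pdp1 (0.209 ± 0.0857) were far below. In ff;ff the place of Pdk2 above Pdp2 held in 4 of 4 libraries, while Pdk1 stood above Pdk4 in 2 of 4, so these neighbours could not be ordered. In Rab30 Ctrl the FPKM means were 38.4 ± 5.75 for Pdk2, 13.6 ± 2.57 for Pdk1 and 2.99 ± 1.93 for Pdk4, and this order of the kinases held in 4 of 4 libraries. In Cpt2L-/- Pdk4 was at 111 ± 25.6 FPKM and Pdk2 at 30.01 ± 3.85. In DKO Pdk4 was at 200 ± 63.8 FPKM and Pdk2 at 35.2 ± 2.92. Pdk4 exceeded Pdk2 in 4 of 4 libraries of either group. Pdk3, a kinase with little mRNA in the liver, and Pdp1 remained below 1 FPKM in all 24 libraries, at most 0.544 and 0.727.

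**Figure D1:**
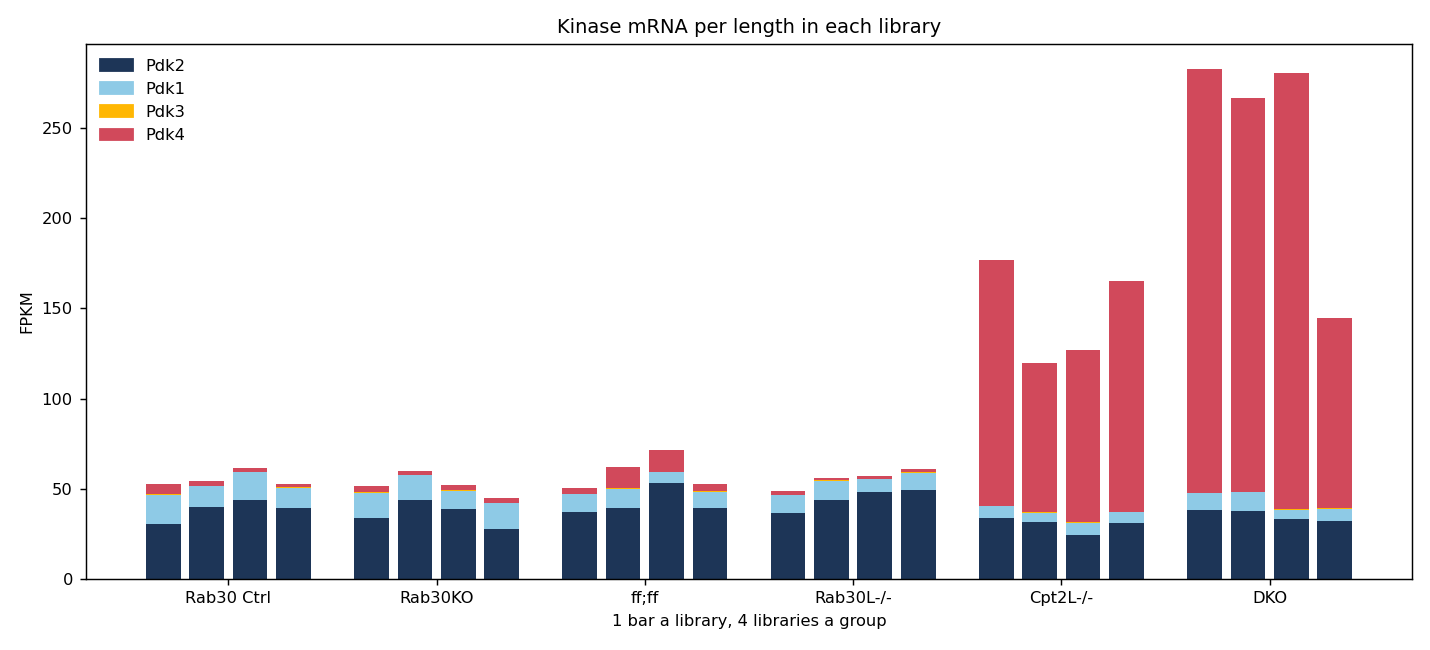
FPKM of the 4 kinase mRNAs stacked in each of the 24 libraries, 1 bar a library and 4 bars a group. The bars of Cpt2L-/- and DKO are the tall ones, and nearly all of their extra height is Pdk4.

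Pdk4 made up most of the kinase mRNA only in the libraries labelled Cpt2L-/- or DKO. Its share of the summed kinase FPKM was 5.53% ± 3.79 (SD, n = 4) in Rab30 Ctrl, 5.56% ± 1.27 in Rab30KO, 12.5% ± 6.24 in ff;ff and 3.17% ± 0.748 in Rab30L-/-. It was 74.8% ± 3.87 in Cpt2L-/- and 81.1% ± 5.67 in DKO. The highest share in the other 4 groups was 18.9% and the lowest in these 2 groups was 69.2%. The summed kinase FPKM was 59.1 ± 9.56 in ff;ff, 55.6 ± 5.07 in Rab30L-/-, 147 ± 28.1 in Cpt2L-/- and 244 ± 66.2 in DKO. The summed phosphatase FPKM moved less, from 10.3 ± 1.04 in ff;ff to 7.85 ± 0.759 in Cpt2L-/- and 9.23 ± 2.12 in DKO. The ratio of kinase to phosphatase FPKM was accordingly 5.73 ± 0.427 in ff;ff, 6.32 ± 0.710 in Rab30L-/-, 18.8 ± 3.93 in Cpt2L-/- and 26.7 ± 7.08 in DKO. These are ratios of mRNA, and neither protein nor enzyme activity was analysed here.

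Because Pdk2 and Pdk4 change places as the leading kinase, the sequences just before their start sites are shown, from RefSeq's GRCm38.p6. Pdk4 (ENSMUSG00000019577) lies on the minus strand of chromosome 6 of GRCm38, from 5483351 to 5496309. Pdk2 (ENSMUSG00000038967) lies on the minus strand of chromosome 11, from 95026258 to 95041354. The Pdk4 stretch is chr6:5496310-5496528 (219 bases) and the Pdk2 stretch chr11:95041372-95041621 (250 bases), and both end before the first base transcribed. Capitals mark ATTGG, which is the CCAAT box read on the other strand, GCGTG, and CACGTG, which holds ACGTG on both strands; GCGTG and ACGTG are cores of the hypoxia response site.
Pdk4: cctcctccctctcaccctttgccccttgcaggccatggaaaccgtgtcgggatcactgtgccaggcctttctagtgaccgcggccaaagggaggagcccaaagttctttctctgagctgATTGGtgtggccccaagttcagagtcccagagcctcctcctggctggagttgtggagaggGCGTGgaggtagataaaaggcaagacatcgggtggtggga
Pdk2: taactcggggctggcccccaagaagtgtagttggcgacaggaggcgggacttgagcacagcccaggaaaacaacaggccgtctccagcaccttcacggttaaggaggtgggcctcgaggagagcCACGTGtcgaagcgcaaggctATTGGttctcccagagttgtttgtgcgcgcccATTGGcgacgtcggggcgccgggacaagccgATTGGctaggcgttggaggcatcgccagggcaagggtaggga

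Windows of 300 bases, from 250 before to 50 after the start, were searched on both strands for 7 motifs in 5 of the members and in 32851 windows of all genes. The Pdk4 window held 1 CCAAT box, which 37.4% of all windows hold, and 1 GCGTG, which 32.4% hold. The Pdk2 window held 3 CCAAT boxes and ACGTG on either strand, which 19.6% of windows hold. Neither window held the PPAR site core AGGTCA (16.3% of windows), its repeat AGGTCANAGGTCA (0.0396%), the FoxO site GTAAACA (3.65%) or the TATA box TATAAA (13.6%). The windows differed in base composition, with 12 CpG for Pdk4 (0.436 of the number its base content gives) and 25 for Pdk2 (0.817), beside a median of 7 over all windows. These matches are descriptions of letters in a short window.

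The level of Pdk4 in single libraries separated the groups most. In the 4 libraries of ff;ff it was 11, 40.2, 40.8 and 14.8 CPM. In Cpt2L-/- it was 470, 284, 337 and 446 CPM, and in DKO 806, 748, 834 and 365 CPM. The lowest library of Cpt2L-/- and DKO therefore lay far above the highest library of ff;ff (284 against 40.8 CPM), and the 4 libraries of ff;ff fell into a low and a high pair. In Rab30L-/- Pdk4 was at 7.16, 5.27, 5.53 and 6.29 CPM. In Rab30 Ctrl it was at 20.7, 8.53, 7.01 and 6.16 CPM, and in Rab30KO at 12.5, 7.81, 10.2 and 9.50 CPM. All 4 libraries of Rab30L-/- lay below the lowest of ff;ff, while Rab30KO and Rab30 Ctrl overlapped. Over all 24 libraries Pdk4 spanned 158-fold, against 10.2-fold for Pdp1 and 9.84-fold for Pdk3, which had few counts, 3.35-fold for Pdk1, 2.12-fold for Pdk2 and 1.80-fold for Pdp2. In the order of the group means, DKO (688 CPM) came before Cpt2L-/- (384), ff;ff (26.7), Rab30 Ctrl (10.6), Rab30KO (10.01) and Rab30L-/- (6.07). Of these neighbours, Cpt2L-/- with ff;ff and Rab30KO with Rab30L-/- did not overlap (exact two-sided permutation p = 0.0286 each, the smallest that 4 against 4 can give, adjusted p = 0.429 over the 30 neighbour pairs of the 6 genes).

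**Figure D2:**
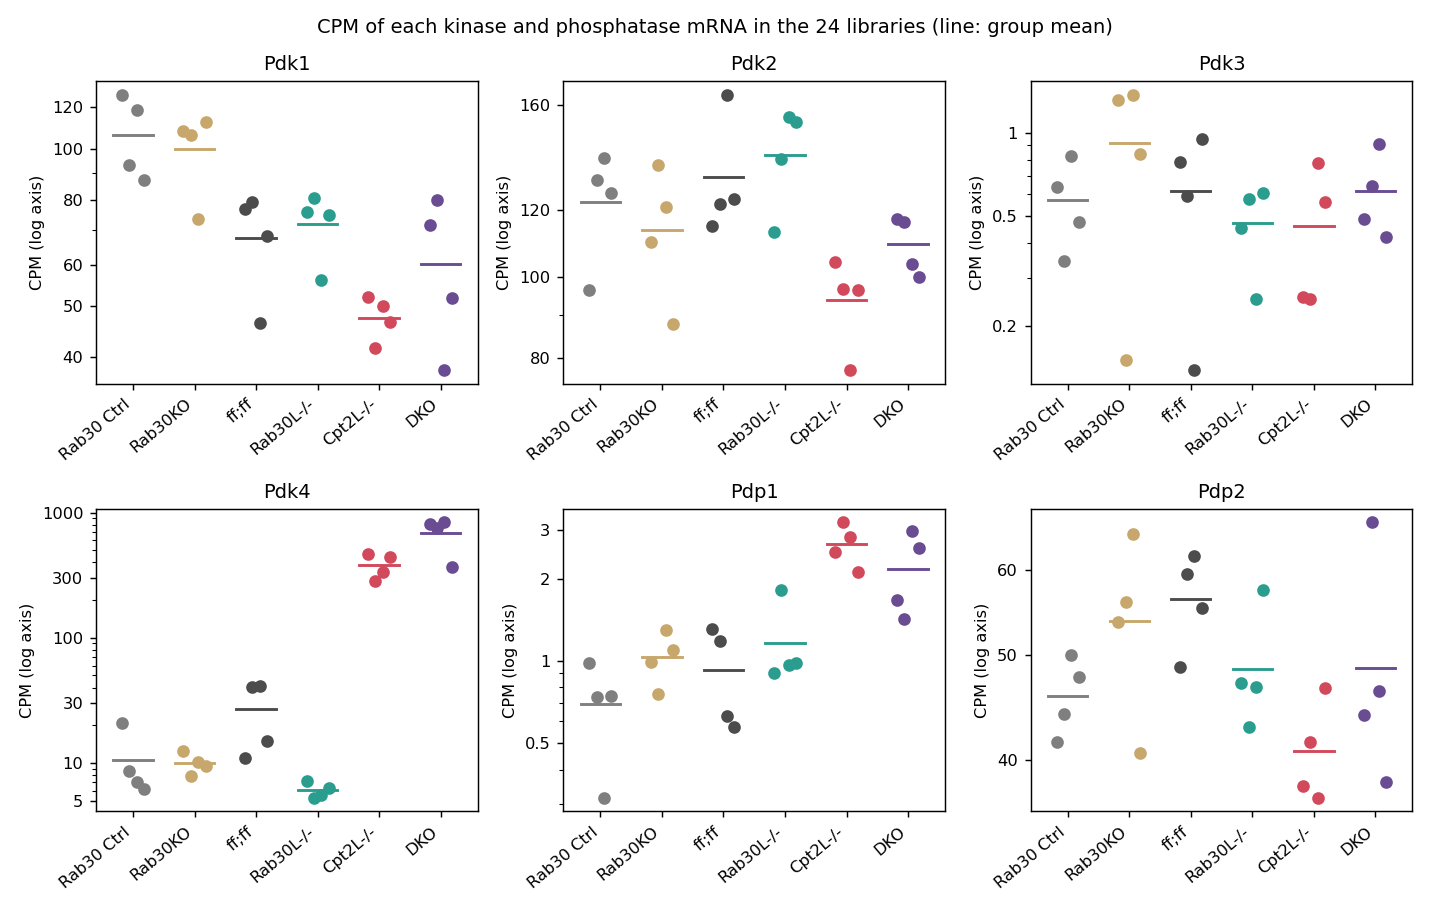
CPM of the 6 genes on a log axis in the 24 libraries, 1 panel a gene, with points for libraries and a line for each group mean. Pdk4 stands at 284 CPM or more in all libraries of Cpt2L-/- and DKO and at 40.8 or less in the others, while the other panels overlap between most groups.

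Loss of Cpt2 was compared first, as the question is how a liver that cannot burn long-chain fatty acids in its mitochondria sets these regulators during a fast. In Cpt2L-/- against ff;ff, 5 of the 5 members tested passed the thresholds, a change of 1.2-fold or more with an adjusted p below 0.05, where 23.8% of the 13270 genes tested did. Pdk4 rose 14.2-fold, from 26.7 ± 16 to 384 ± 88.4 CPM, which is 3.83 on the log2 scale (standard error, SE, 0.47; adjusted p = 0.00042 by edgeR's quasi-likelihood test). It stood at place 53 by fold among the 1576 genes called higher, which are 11.9% of those tested. Its log2 fold change lay between 3.57 and 4.10 with any library left out, and it was called in all 8 of these fits. In bulk liver, fewer cells of a type and less RNA per cell cannot be told apart.

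Pdp1, a phosphatase that is known to answer to calcium, rose as well. Its counts were low, from 5 to 55 in the 24 libraries. In ff;ff it was at 1.31, 1.18, 0.627 and 0.571 CPM, and in Cpt2L-/- at 2.50, 3.21, 2.85 and 2.12 CPM, so the groups did not overlap, as in 26.7% of the genes tested. The log2 fold change was 1.52 (SE 0.34, adjusted p = 0.00586 by edgeR's test), and Pdp1 was called with any 1 of the 8 libraries left out. Per length it remained a small part of the phosphatase mRNA, 2.07% ± 0.976 (SD, n = 4) of the summed FPKM in ff;ff and 7.71% ± 1.62 in Cpt2L-/-.

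The members that lead in the livers with intact Cpt2, Pdk1, Pdk2 and Pdp2, were all lower in Cpt2L-/-, by 1.39-fold to 1.43-fold. Pdk2, the broadly expressed kinase, was at 115, 122, 164 and 124 CPM in ff;ff and at 104, 96.8, 77.5 and 96.4 CPM in Cpt2L-/-. The groups did not overlap, and the log2 fold change was -0.49 (SE 0.16, adjusted p = 0.037 by edgeR's test). Pdp2, the phosphatase that is known to fall with starvation, was at 48.8, 59.5, 61.8 and 55.2 CPM in ff;ff and at 37.9, 41.6, 36.9 and 46.7 CPM in Cpt2L-/-, again without overlap (log2 fold change -0.48, SE 0.14, adjusted p = 0.0257 by edgeR's test). Pdk1, the kinase known as a target of hypoxia signalling, was at 76.9, 79.1, 46.5 and 68.2 CPM in ff;ff and at 52.1, 41.7, 50.01 and 46.6 CPM in Cpt2L-/-, where 1 library of ff;ff lay within the range of Cpt2L-/- (log2 fold change -0.52, SE 0.17, adjusted p = 0.0433 by edgeR's test). These 3 calls were close to the threshold. With 1 library left out, Pdk1 remained called in 1 of 8 fits (without ff;ff replicate 3, adjusted p from 0.00351 there to 0.131 without ff;ff replicate 2). Pdk2 remained called in 2 of 8 fits (without ff;ff replicate 1 or Cpt2L-/- replicate 1, adjusted p 0.0252 to 0.0924 by edgeR's test), and Pdp2 in 4 of 8 (lost without ff;ff replicate 2 or Cpt2L-/- replicate 1, 2 or 3, adjusted p 0.0123 to 0.0735). Of all genes tested, 11.9% were called lower.

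In DKO against ff;ff, 16.1% of 13389 genes were called, and of the 6 members Pdk4 was. It rose from 26.7 ± 16 to 688 ± 218 CPM (log2 fold change 4.67, SE 0.52, adjusted p = 0.000574 by edgeR's test), place 17 by fold among the 1054 genes called higher, 7.87% of those tested. Pdp1 was at 1.67, 1.42, 2.99 and 2.58 CPM in DKO, all above the 4 libraries of ff;ff. Groups did not overlap in 20.5% of the genes tested. The log2 fold change of Pdp1 was 1.23 (SE 0.39, adjusted p = 0.0507 by edgeR's test), and the call was made without DKO replicate 2 or without ff;ff replicate 1 (adjusted p down to 0.0376). Pdk1 at 71.6, 79.7, 37.8 and 51.9 CPM, Pdk2 at 117, 116, 104 and 100 CPM and Pdp2 at 44.0, 66.3, 46.3 and 38.2 CPM overlapped with ff;ff. Their log2 fold changes were -0.18, -0.27 and -0.22, with adjusted p of 0.674, 0.245 and 0.45 by edgeR's test. Cpt2L-/- and DKO were set against the same 4 libraries of ff;ff, so these comparisons share their controls.

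DKO against Rab30L-/- asks for the effect of Cpt2 in livers without Rab30, and shares no library with Cpt2L-/- against ff;ff. Here 30.7% of 13292 genes were called, and 1 of the 5 members tested. Pdk4 rose 114-fold, from 6.07 ± 0.852 to 688 ± 218 CPM (log2 fold change 6.83, SE 0.31, adjusted p = 7.77e-07 by edgeR's test). Among the 1984 genes called higher, which are 14.9% of those tested, Pdk4 was at place 7 by fold and at place 2 by p. The raw counts behind it were 64 to 132 in Rab30L-/- and 7794 to 12837 in DKO. Pdk2 was at 113, 138, 154 and 152 CPM in Rab30L-/-, and its log2 fold change in DKO was -0.35 (SE 0.13, adjusted p = 0.0577 by edgeR's test). It was called without Rab30L-/- replicate 1 (log2 fold change -0.43, adjusted p = 0.0236), whereas 15.8% of all genes were called lower. Pdp1 had a log2 fold change of 0.91 (adjusted p = 0.0766 by edgeR's test), and was called without Rab30L-/- replicate 2, its highest library (log2 fold change 1.19, adjusted p = 0.0421). Pdk1 and Pdp2 had log2 fold changes of -0.25 and 0.01.

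**Figure D3:**
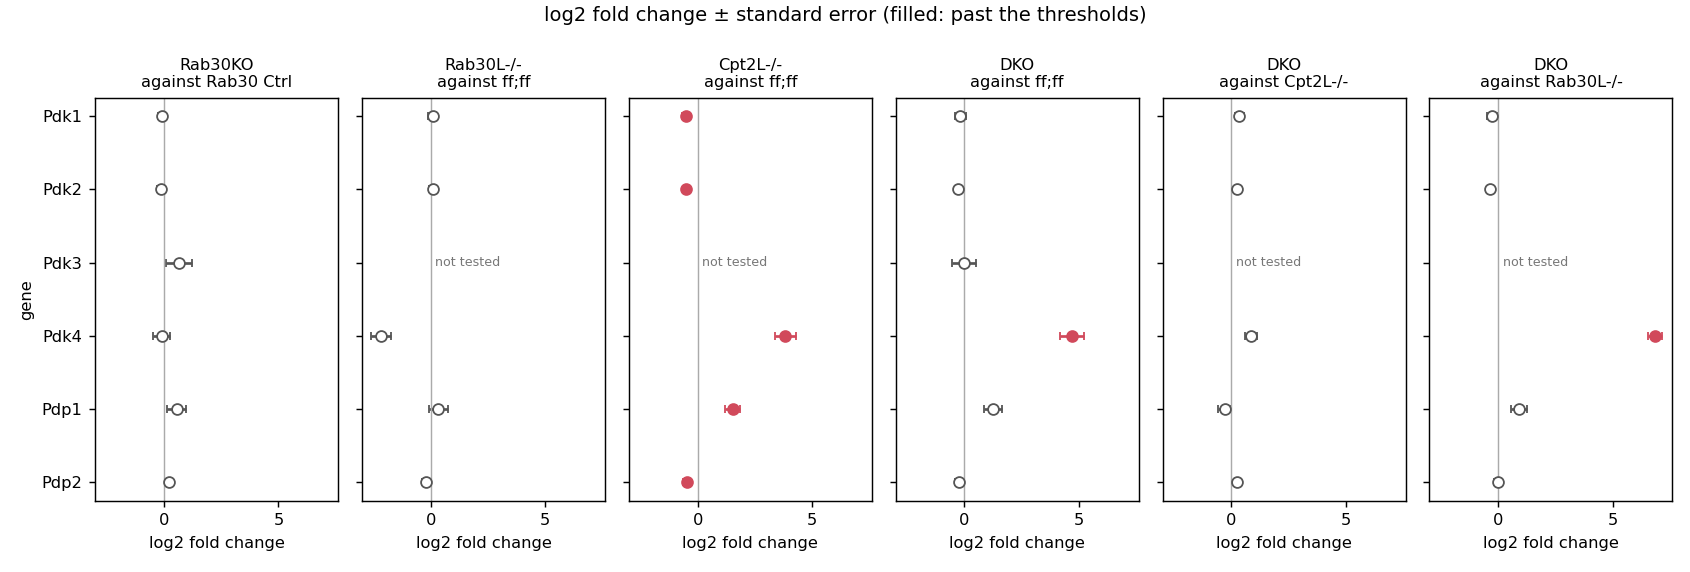
log2 fold change with its standard error for the 6 genes in 6 comparisons, 1 panel a comparison, with 4 libraries a group. Filled points passed the thresholds, which Pdk4 did in the 3 panels that set livers without Cpt2 against livers with it, and 4 other genes in Cpt2L-/- against ff;ff.

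In livers without Rab30 alone no member passed the thresholds, although the mean of Pdk4 was lower in Rab30L-/-. In Rab30L-/- against ff;ff, 0 of 5 members tested were called (1 at an unadjusted p under 0.05, 1 by DESeq2 and 0 by limma-voom), where 0.479% of 13367 genes were. Pdk4 went from 26.7 ± 16 CPM in ff;ff to 6.07 ± 0.852 in Rab30L-/- without overlap, as 6.38% of genes did. Its log2 fold change was -2.16 (SE 0.43, adjusted p = 0.0872 by edgeR's test). Without ff;ff replicate 1, the lowest library of its group, the log2 fold change was -2.41 and the adjusted p 0.0283, and DESeq2's adjusted p over all 8 libraries was 7.43e-06. The other 4 members tested had log2 fold changes from -0.22 for Pdp2 to 0.32 for Pdp1. In Rab30KO against Rab30 Ctrl, 0 of 6 members were called by edgeR, at an unadjusted p under 0.05, by DESeq2 or by limma-voom, where 0.022% of 13656 genes were called. Pdk4 was at 10.01 ± 1.95 CPM in Rab30KO and 10.6 ± 6.82 in Rab30 Ctrl (log2 fold change -0.09, SE 0.36, adjusted p = 1.0 by edgeR's test), and the log2 fold change was 0.47 without Rab30 Ctrl replicate 1.

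In DKO against Cpt2L-/-, which asks for the effect of Rab30 in livers without Cpt2, 0 of 5 members tested were called by edgeR (1 at an unadjusted p under 0.05, 1 by DESeq2 and 1 by limma-voom), where 2.71% of 13306 genes were. Pdk4 was 1.81-fold higher by its means, 688 ± 218 against 384 ± 88.4 CPM, and 3 of the 4 DKO libraries lay above all of Cpt2L-/-. The log2 fold change was 0.86 (SE 0.26, adjusted p = 0.102 by edgeR's test). Without DKO replicate 4, the library at 365 CPM, it was 1.07 with an adjusted p of 0.013. DESeq2's adjusted p over all 8 libraries was 0.0174. The mean of Pdk4 was thus lower in Rab30L-/- than in ff;ff and higher in DKO than in Cpt2L-/-. The difference between these 2 changes was tested over 16 libraries as an interaction and was 3.01 on the log2 scale (SE 0.54, adjusted p = 0.00677 by edgeR's test), or 8.04-fold. It lay between 2.74 and 3.27 with any library left out and was called in all 16 of these fits. The interaction called 4.06% of 14063 genes and, of the 5 members tested, Pdk4. For Pdk1, Pdk2, Pdp1 and Pdp2 it was 0.27, 0.15, -0.61 and 0.49. The summed CPM of the 6 hepatocyte markers moved in the same directions as Pdk4 in both Rab30 comparisons, without overlap, at 76560 to 92050 in Rab30L-/- against 94300 to 126700 in ff;ff and at 58990 to 71200 in DKO against 44410 to 53200 in Cpt2L-/-. Most of that sum was Alb, at 82990 ± 10090 CPM in ff;ff. Apoa1 moved the other way in both comparisons, with log2 fold changes of 0.17 and -0.56. Serpina1a (0.03) did not fall in the first, and Ttr (0.03) hardly rose in the second. In Rab30L-/- against ff;ff edgeR called 0 of the 6 (2 lower at an unadjusted p under 0.05, 2 lower by DESeq2 and 1 lower by limma-voom). In DKO against Cpt2L-/- it also called 0 (2 higher and 1 lower at an unadjusted p under 0.05, 1 and 1 by DESeq2, 2 and 1 by limma-voom). In the interaction it called 1, albumin (Alb), which was higher by 1.04 on the log2 scale (adjusted p = 0.0215 by edgeR's test). The part of these markers in the values of Pdk4 was not tested.

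Pdk3, an X-linked kinase, had 2 to 19 counts in a library and lay between 0.139 and 1.37 CPM. It passed the filter on low counts in Rab30KO against Rab30 Ctrl (log2 fold change 0.68, SE 0.57) and in DKO against ff;ff (-0.02, SE 0.52), and did not pass it elsewhere. In 1 fit over 24 libraries and without the filter it was not called in the other comparisons either, with log2 fold changes in Cpt2L-/- against ff;ff of -0.41 (adjusted p 0.659 to 0.694 by edgeR's test).

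Between the 2 groups of control mice, Pdk1 did not overlap but did not pass the thresholds. In ff;ff against Rab30 Ctrl, 0 of 5 members tested were called (3 at an unadjusted p under 0.05, 0 by DESeq2 and 0 by limma-voom), where 0.949% of 13587 genes were. Pdk1 was at 127, 92.99, 118 and 87.05 CPM in Rab30 Ctrl, above all 4 libraries of ff;ff, and groups did not overlap in 8.29% of the genes tested. The log2 fold change of Pdk1 was -0.63 (SE 0.20, adjusted p = 0.18 by edgeR's test). For Pdk4 it was 1.36 (adjusted p = 0.301) and for Pdp2 0.32 (adjusted p = 0.364). Of 6 Kupffer cell markers 4 fell in ff;ff (sums of 161 to 291 against 361 to 592 CPM), as did 1 of the 2 lymphocyte markers tested (5.50 to 9.86 against 13.6 to 22.6 CPM for the list of 4), and their part was not tested. The order of the Pdk4 means above also sets groups of different mouse lines beside each other.

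The genes of the complex that these enzymes act on are given for their levels, since 6 genes are too few to read a count from. Its 6 genes were Pdha1 and Pdhb (E1), Dlat (E2), Dld (E3), the binding protein Pdhx, and Pdpr, the regulatory subunit of the phosphatase. In Cpt2L-/- against ff;ff, 0 of 6 were called by edgeR, at an unadjusted p under 0.05, by DESeq2 or by limma-voom, where 23.8% of all genes were, with a median log2 fold change of -0.16 beside 0.00 over all genes. Pdha1, the phosphorylated subunit, was at 114 ± 12.9 CPM in Cpt2L-/- and 103 ± 10.3 in ff;ff (log2 fold change 0.13, adjusted p = 0.541 by edgeR's test). The other 5 had log2 fold changes from -0.28 for Pdpr to -0.12 for Pdhx. In DKO against Rab30L-/-, 0 of 6 were called (1 at an unadjusted p under 0.05, 0 by DESeq2 and 2 by limma-voom), where 30.7% of all genes were called, with log2 fold changes from 0.03 for Pdhx to 0.31 for Dlat and a median of 0.17 beside -0.01 over all genes. In DKO against Cpt2L-/- they ran from -0.13 for Pdha1 to 0.47 for Pdpr, and none was called.

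The branched-chain ketoacid dehydrogenase is built and switched in the same way, with the kinase Bckdk and the phosphatase Ppm1k. In Cpt2L-/- against ff;ff, Bckdk rose from 12.3 ± 2.38 to 19.6 ± 3.12 CPM (log2 fold change 0.66, adjusted p = 0.0184 by edgeR's test). Dbt, the E2 subunit, fell from 160 ± 37.6 to 57.5 ± 8.40 CPM (log2 fold change -1.49, adjusted p = 9.57e-05 by edgeR's test), and Bckdhb of E1 fell with a log2 fold change of -0.53 (adjusted p = 0.0151 by edgeR's test). Bckdha (-0.29) and Ppm1k (-0.58) were not called. Against Rab30L-/-, DKO again had less Dbt (log2 fold change -0.82, adjusted p = 0.00635 by edgeR's test) and less Bckdha (-0.70, adjusted p = 0.00242). Bckdk was not called there (0.21, adjusted p = 0.378). In DKO against Cpt2L-/- Dbt was higher, with a log2 fold change of 0.65 (adjusted p = 0.0411 by edgeR's test).

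Genes of pyruvate supply and use moved in either direction. In Cpt2L-/- against ff;ff, 6 of 26 rose and 4 fell, with a median log2 fold change of 0.04, where 11.9% of all genes rose and 11.9% fell, so that the falls were near the share of all genes. The largest rises were in the mitochondrial phosphoenolpyruvate carboxykinase Pck2 (1.49), malic enzyme Me1 (1.25) and citrate synthase Cs (1.13). Among those that fell were Pfkfb1 (-1.24), which makes and breaks fructose 2,6-bisphosphate, and the alanine transaminase Gpt (-0.89). Between DKO and Rab30L-/-, 5 of 26 rose in DKO and 8 fell, where 14.9% of all genes rose and 15.8% fell. Me1 (1.97) and Cs (1.25) rose again, and Gpt (-1.23) and the citrate lyase Acly (-1.004) fell.

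Targets of the factors that are known to act on Pdk4 did not move as a block. Of 38 targets of Pparα, the fatty acid sensor of the fasted liver, 26 rose and 0 fell by edgeR in Cpt2L-/- against ff;ff, with a median log2 fold change of 0.88, beside 11.9% of all genes in either direction. In DKO against Rab30L-/- 30 of the 37 tested rose and 0 fell by edgeR, with a median of 1.28, beside 14.9% of all genes higher and 15.8% lower. The thioesterase Acot2 rose from 11.1 ± 7.004 to 176 ± 42.7 CPM in the first comparison (log2 fold change 3.97, adjusted p = 0.000277 by edgeR's test) and with a log2 fold change of 4.31 in the second. The uncoupling protein Ucp3 and the glycerol channel Aqp3 were at 3.24 and 3.76 CPM in Cpt2L-/- and at 0.0159 and 0.116 in ff;ff, too few counts for a fold change. Both are among the 38 and passed the filter on low counts only through the livers without Cpt2, so their direction was fixed in advance. In Rab30L-/- against ff;ff 35 of the 38 targets were tested. This list was written with the results of the study known, and its direction is not independent evidence.

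Of 18 targets of FoxO factors and the glucocorticoid receptor, 1 rose and 6 fell in Cpt2L-/- against ff;ff, with a median log2 fold change of -0.43, beside 11.9% of all genes in either direction. The lowest were glucose-6-phosphatase G6pc (848 ± 235 to 126 ± 39.5 CPM, log2 fold change -2.76, adjusted p = 1.6e-05 by edgeR's test), the glucocorticoid target Tsc22d3 (log2 fold change -2.49) and tyrosine aminotransferase Tat. The pseudokinase Trib3 rose with a log2 fold change of 1.85 (adjusted p = 0.00388 by edgeR's test). In Rab30L-/- against ff;ff, where the mean of Pdk4 was also lower, 2 of the 18 fell where 0.18% of all genes did, G6pc (log2 fold change -1.28, adjusted p = 0.0423 by edgeR's test) and Tsc22d3 (-1.07, adjusted p = 0.0177). In Rab30L-/- against ff;ff 0 of the 35 tested Pparα targets, 0 of 19 hypoxia targets, 0 of 20 regulators and 0 of 26 genes of pyruvate supply were called by edgeR. At an unadjusted p under 0.05 these counts were 8, 3, 3 and 5, DESeq2 called 1 in each list, and limma-voom called 3 of the Pparα targets and 1 in each of the others. In DKO against Rab30L-/- 1 rose and 3 fell of the 18, near or below the 14.9% and 15.8% of all genes. The interaction that was 3.01 for Pdk4 was called with the same sign for 4 of these 18, led by G6pc (2.58), Txnip (1.69) and Dusp1 (1.63), where 2.2% of all genes were called higher and Pdk4 took place 55 by size among these 310. Of the other lists the interaction called 0 of 38 Pparα targets, 1 of 19 hypoxia targets and 1 of 20 regulators, both higher, and 1 higher and 1 lower of the 26 genes of pyruvate supply by edgeR. For the Pparα targets 11 had an unadjusted p under 0.05, and DESeq2 called 5 and limma-voom 8. The library ff;ff replicate 3 had the highest CPM of its group for 17 of the 18 FoxO and glucocorticoid targets and for Pdk4. Pdk4 was nearly as high in ff;ff replicate 2 (40.2 against 40.8 CPM). That replicate was highest for 0 of these 18 and for 25 of 38 Pparα targets. Rab30 Ctrl replicate 1, the highest of its group for Pdk4, was highest for 8 of the 18 and for 25 of the 38. Without ff;ff replicate 3 the median log2 fold change of the FoxO and glucocorticoid list was -0.23 in Cpt2L-/- against ff;ff (2 rose and 6 fell) and -0.19 in Rab30L-/- against ff;ff (1 fell), beside -0.43 and -0.55 with that library. The 2 calls in Rab30L-/- against ff;ff also became 0 without Rab30L-/- replicate 2 or 4 and 1 without Rab30L-/- replicate 1 or ff;ff replicate 2. For Pdk4 the log2 fold change without ff;ff replicate 3 was 4.10 in Cpt2L-/- against ff;ff and the interaction was 2.74.

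**Figure D4:**
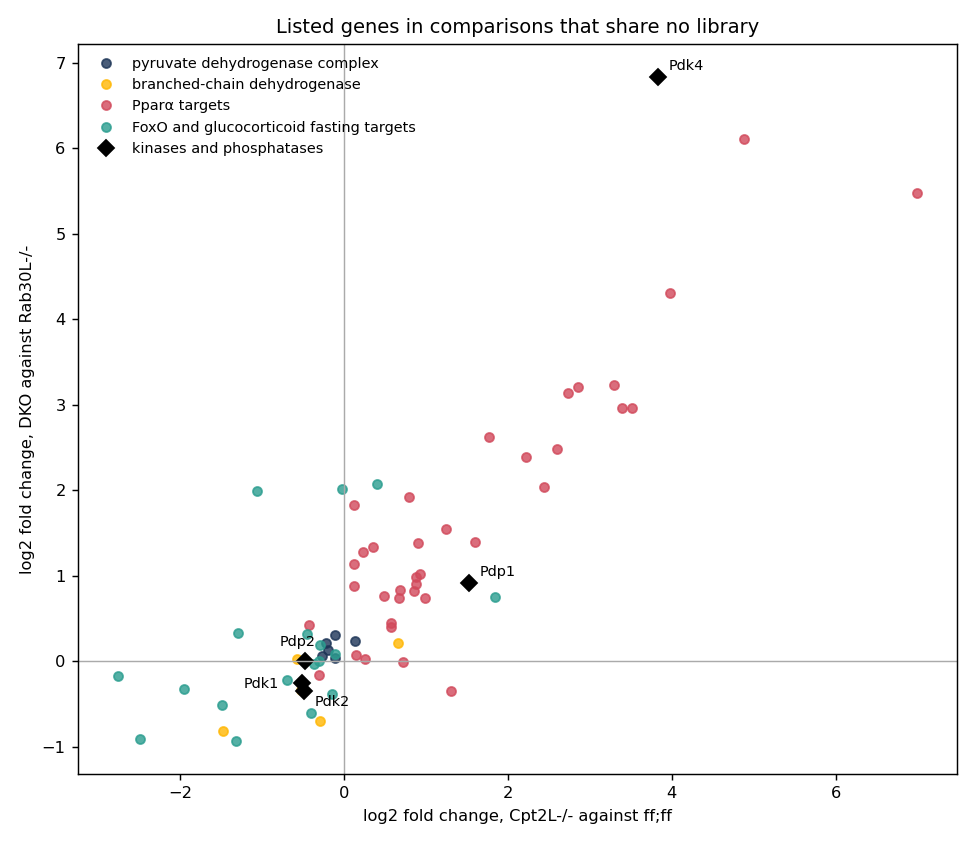
log2 fold change of each listed gene in Cpt2L-/- against ff;ff (horizontal) and in DKO against Rab30L-/- (vertical), 2 comparisons with no library in common, coloured by list, with the 5 tested kinases and phosphatases as diamonds. Pdk4, at 3.83 and 6.83, lies to the upper right, where many Pparα targets also lie. That list was written with the results of the study known, and its targets Ucp3 and Aqp3 have too few counts for a fold change. The genes of the complex lie near 0 and many FoxO and glucocorticoid targets lie to the left.

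Pdk1 is known as a target of the hypoxia-inducible factors, and other targets of these factors were counted beside it. In Cpt2L-/- against ff;ff 4 of the 19 tested of 21 rose and 0 fell by edgeR, with a median log2 fold change of 0.06, beside 11.9% of all genes in either direction. At an unadjusted p under 0.05 these counts were 4 and 2, by DESeq2 4 and 1, and by limma-voom 3 and 1. The rises were led by the aldolase Aldoa (0.89), Ndrg1 (0.83) and the enolase Eno1 (0.77). The second comparison, DKO against Rab30L-/-, had 5 that rose and 2 that fell, beside 14.9% and 15.8% of all genes. In DKO against ff;ff, which shares its controls with the first, 0 of the 18 tested rose and 1 fell by edgeR, beside 7.87% and 8.24% of all genes (3 and 3 at an unadjusted p under 0.05, 2 and 1 by DESeq2, 3 and 2 by limma-voom). With 1 library left out the rises numbered 1 to 4 in Cpt2L-/- against ff;ff, 4 to 5 in DKO against Rab30L-/- and 0 to 3 in DKO against ff;ff, where 3 were called without ff;ff replicate 3. The falls numbered 0 to 1, 0 to 2 and 1 to 2 in these 3 comparisons. Of 20 regulators, 3 rose and 4 fell in Cpt2L-/- against ff;ff, near the 11.9% of all genes in either direction. The nuclear receptor Pparg rose from 7.73 ± 1.99 to 20.5 ± 4.21 CPM (log2 fold change 1.40, adjusted p = 0.00053 by edgeR's test). The forkhead factor Foxo1 fell from 72.3 ± 12.1 to 35.9 ± 5.88 CPM (-1.02, adjusted p = 0.000681). Of the same 20 regulators in DKO against Rab30L-/-, 3 rose and 4 fell, near the 14.9% and 15.8% of all genes, with a median log2 fold change of -0.22. Pparg (2.12), the corepressor Nrip1 (1.11) and Hif1a (0.87) rose, and Mlxipl (-0.97), Srebf1 (-0.75) and Esrra (-0.72) led those that fell.

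Some markers of hepatocytes and Kupffer cells were called lower in the livers without Cpt2, and the hepatocyte sum also moved in the Rab30 comparisons above. Of the 6 hepatocyte markers 4 fell in Cpt2L-/- against ff;ff, with sums of 44410 to 53200 against 94300 to 126700 CPM. Of all genes tested there, 11.9% were called lower. Tat is also 1 of the FoxO and glucocorticoid targets. Of 6 Kupffer cell markers 3 fell (135 to 187 against 161 to 291 CPM) and of 3 blood markers all 3 (63.8 to 137 against 171 to 583 CPM). Of 5 sinusoidal endothelial markers 1 fell (149 to 176 against 140 to 205 CPM). Of the 4 bile duct markers tested 1 fell (9.56 to 24.0 against 15.3 to 31.9 CPM for the list of 5). A single call in so short a list cannot be told from the share of all genes. The stellate sum was 240 to 266 against 135 to 253 CPM with 0 of 6 called by edgeR. Of the other lists few markers had counts enough to be tested in Cpt2L-/- against ff;ff, 1 of 4 for lymphocytes, 1 of 4 for skeletal muscle, 0 of 3 for neutrophils and 0 of 3 for adipocytes, and neither of the 2 tested was called. In DKO against Rab30L-/-, 3 hepatocyte markers (58990 to 71200 against 76560 to 92050 CPM), 5 Kupffer cell markers (132 to 155 against 210 to 582 CPM) and 1 of the 3 bile duct markers tested fell, where 15.8% of all genes were called lower. In DKO against ff;ff, 3 hepatocyte, 3 Kupffer cell and 1 of 5 bile duct markers fell, where 8.24% of all genes were called lower. In these 2 DKO comparisons edgeR called 0 of the 5 sinusoidal endothelial and 0 of the 3 blood markers. The part of the cell type markers in the changes of the kinases and phosphatases was not tested. The 4 skeletal muscle markers summed to 0.640 to 1.01 CPM in Cpt2L-/-, 0.488 to 0.910 in DKO, 0.348 to 0.591 in ff;ff and 0.577 to 1.47 in Rab30L-/-, with Ckm and Myh4 at 0 in every Cpt2L-/- library. The 3 adipocyte markers Adipoq, Lep and Retn were at 0 in all 4 libraries of Cpt2L-/-.

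Across the 24 libraries, the protein-coding genes whose log2 CPM followed Pdk4 most closely, of 12638 candidates, were Enc1 (Pearson r = 0.977), Rhou (0.969), Ppp2r2d (0.962), Picalm (0.962) and Aqp3 (0.959). The libraries share 6 groups, and after each group's mean was subtracted r was 0.696 for Enc1 and 0.272 for Aqp3, which had few counts in several groups. Pdk1 followed the growth hormone receptor Ghr most closely (r = 0.93, and 0.813 after subtraction). Pdk2 followed Sipa1l3 most closely (0.894, and 0.827 after subtraction). For Pdp1 the closest was Arid5a (0.867), for Pdp2 another mitochondrial phosphatase gene, Pptc7 (0.708), and for Pdk3 Rgmb (0.736). These values describe likeness over shared libraries and carry no test. Within Pdk2 the annotation has the antisense gene Gm11513, counted at no more than 0.377 CPM in any library, and the sources used here do not state whether counting used strand, so reads of this pair could not be told apart.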

How the data were processed

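Total RNA of whole livers was made into libraries, sequenced and counted for the authors by a company. The submitters' processing notes name HISAT2, DESeq2 and the builds GRCm38 and mm10; the counter and its strand setting are not given in the sources used here. The authors deposited raw counts per gene for 54532 genes, FPKM, which were each count divided by gene length and 1 constant per library, and a normalized signal, each count divided by a size factor per library. Levels between genes used the deposited FPKM alone. The normalized signal entered no test. The authors also deposited tables of comparisons, with a log2 fold change, p-value and adjusted p-value per gene, which were not used.

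Libraries were grouped by the genotype labels, and replicates are numbered in accession order, so numbers pair nothing. Raw counts were filtered by filterByExpr, scaled by TMM and tested with edgeR 4.0.16 (glmQLFit with robust estimation, glmQLFTest) in R 4.3.3, each comparison on its own 8 libraries and the interaction on 16, with Benjamini-Hochberg adjustment over all genes tested. The thresholds were 0.05 for the adjusted p and 1.2 for the fold change. Fits were tested on simulated data. Alternatives were DESeq2 1.42.0 (size factors and Wald test), limma 3.58.1 voom with quality weights, 1 fit over 24 libraries, no filter, a filter of 10 counts in each of the libraries, unadjusted p, calls regardless of fold, and each library left out. Tables and figures used Python 3.11.15 with pandas 2.3.3, numpy 2.4.6 and matplotlib 3.10.9.

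The text names the 6 members, all genes of the complex and of the branched-chain dehydrogenase, Rab30 and Cpt2, and of every other list at most the 3 genes with the largest change in each direction among those past the thresholds, besides the genes most like each member and, within the lists of cell type markers, those that make up a list or were at 0. The members and lists were chosen with earlier results of these data known. A few genes that this rule names are not reported here.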

Additional observations from a re-analysis of the deposited data

Results flagged for a closer look

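In 3 of the 36 sets of 4 libraries formed by the 6 genes and 6 groups, 1 library stood apart from the other 3 by Dixon's criterion, which chance alone gives in about 5% of sets. Pdk4 was at 20.7 CPM in Rab30 Ctrl replicate 1, where the other 3 libraries lay between 6.16 and 8.53 CPM. Without it the mean change of Pdk4 from Rab30 Ctrl to Rab30KO turned from -0.09 to 0.47 on the log2 scale. Pdk1 was at 73.3 CPM in Rab30KO replicate 3, below the other 3 libraries at 106 to 112 CPM. Pdp1 was at 1.81 CPM in Rab30L-/- replicate 2, above the other 3 at 0.905 to 0.986 CPM.

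The change of Pdk4 from Cpt2L-/- to DKO differed from its change from ff;ff to Rab30L-/- by 3.01 on the log2 scale (standard error 0.54, adjusted p = 0.00677 by edgeR's quasi-likelihood test). Its own changes were 0.86 and -2.16, and neither passed the thresholds alone.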

How the results depend on the processing

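The rise of Pdk4 in Cpt2L-/- against ff;ff, DKO against ff;ff and DKO against Rab30L-/-, and its interaction, kept their direction and call under every alternative setting and with each library left out. The number of members past the thresholds moved elsewhere. Rab30L-/- against ff;ff had 1 (not 0) with unadjusted p, by DESeq2's Wald test and in the fit over 24 libraries, and 0 to 1 with a library left out. Cpt2L-/- against ff;ff had 2 to 4 (not 5) with a library left out. DKO against ff;ff had 2 (not 1) with unadjusted p, by DESeq2's Wald test, in the fit over 24 libraries and without the filter, and 1 to 2 with a library left out. DKO against Cpt2L-/- had 1 with unadjusted p, by DESeq2's Wald test and by limma-voom, and 0 to 1 with a library left out. DKO against Rab30L-/- had 3 with unadjusted p, 2 by DESeq2's Wald test and by limma-voom, and 1 to 2 with a library left out. With unadjusted p, ff;ff against Rab30 Ctrl had 3 and the interaction 2. The cause was not tested.

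Some changes near 0 turned sign, and none of these was called. Pdk4 in Rab30KO against Rab30 Ctrl was 0.22 by limma-voom and -0.28 to 0.47 with a library left out, and Pdk1 there -0.17 to 0.0302. Pdk1 in Rab30L-/- against ff;ff ran from -0.0694 to 0.19, Pdp2 in DKO against Rab30L-/- from -0.17 to 0.12, and Pdk2 in ff;ff against Rab30 Ctrl from -0.0042 to 0.19. Pdk3 in DKO against ff;ff was 0.0028 without the filter and -0.35 to 0.28 with a library left out. Pdk1 in Cpt2L-/- against ff;ff lost its call in the fit over 24 libraries (adjusted p = 0.0715), and Pdp2 without the filter (adjusted p = 0.0513). Depth limits Pdk3 and Pdp1, with at most 19 and 55 counts in a library. Whole-gene counts do not check the deleted exon, and no fed liver, protein or phosphorylation was analysed here. No paired analysis was possible because replicate numbers are in accession order and pair no libraries.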
